A study of Homo sapiens with 36 samples.

Results

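A set of 9 genes known mainly from monocytes, macrophages and granulocytes were followed in MEC-1, a human cell line of B-cell origin established from a chronic lymphocytic leukaemia. They were MNDA, FCN1, CD163, CD14, LYZ, S100A8, S100A9, CSF1R and ITGAM, 9 of the 33616 genes that the array's annotation names with a single symbol. All 9 had such an array unit, meaning a set of probes summarised to 1 value, and for ITGAM, which had 2 units, the brightest over the 36 arrays was taken. Each gene was first set against the array's background in scrambled arrays, and each treated group was then compared with the scrambled group of its own experiment. The set was chosen by name, as genes linked to the myeloid lineage, after the lower MNDA signal of the CYTOR experiment was known, and the brightest unit and the split at background were selected on the signals themselves, so that change is given as a description with no test.

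RNA was measured on Affymetrix arrays after 4 days with LNA gapmers, short antisense oligonucleotides that recruit RNase H to a chosen RNA and that the cells took up unaided. The 3 experiments carry the labels CYTOR, LINC00158 and RP11-161H23.5, after the long non-coding RNA each aimed to silence. Every experiment had 4 groups of 3 arrays, namely gapmer 1, gapmer 2, both together (gapmer 1+2) and a scrambled gapmer, at 1 µM of each gapmer. With both gapmers the total dose may therefore have been higher. All groups share the one cell line, and the labels do not say whether the replicates were separate cultures, so the tests measure the spread between these arrays only.

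MNDA is a nuclear protein of the interferon-inducible PYHIN family that is also known from some B cells. FCN1 (ficolin-1) and LYZ (lysozyme) are secreted defence proteins, the first a lectin that starts the complement cascade and the second an enzyme that cuts bacterial cell walls. CD163, CD14, CSF1R and ITGAM are surface receptors of myeloid cells, and S100A8 with S100A9 forms calprotectin, an abundant protein of neutrophils and monocytes.

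The 300 bases around the start of 4 genes, from 250 before the start to 50 from it, are shown because their signals carry the comparisons that follow. They come from RefSeq (GRCh38.p14) and run 5′ to 3′ on the gene's strand. The windows are chr1:158831101-158831400 (plus strand) for MNDA, chr9:134917863-134918162 (minus) for FCN1, chr12:7503728-7504027 (minus) for CD163 and chr1:153357604-153357903 (plus) for S100A9.
MNDA: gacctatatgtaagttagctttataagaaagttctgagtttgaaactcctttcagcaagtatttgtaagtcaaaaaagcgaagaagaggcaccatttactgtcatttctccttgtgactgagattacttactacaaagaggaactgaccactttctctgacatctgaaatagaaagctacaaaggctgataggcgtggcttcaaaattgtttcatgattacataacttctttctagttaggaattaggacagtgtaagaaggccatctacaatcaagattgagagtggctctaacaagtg
FCN1: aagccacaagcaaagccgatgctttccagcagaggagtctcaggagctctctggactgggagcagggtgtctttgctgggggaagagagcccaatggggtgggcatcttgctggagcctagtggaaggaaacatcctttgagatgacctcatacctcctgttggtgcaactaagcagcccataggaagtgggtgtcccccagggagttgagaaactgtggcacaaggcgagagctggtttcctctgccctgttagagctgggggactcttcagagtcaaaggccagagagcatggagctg
CD163: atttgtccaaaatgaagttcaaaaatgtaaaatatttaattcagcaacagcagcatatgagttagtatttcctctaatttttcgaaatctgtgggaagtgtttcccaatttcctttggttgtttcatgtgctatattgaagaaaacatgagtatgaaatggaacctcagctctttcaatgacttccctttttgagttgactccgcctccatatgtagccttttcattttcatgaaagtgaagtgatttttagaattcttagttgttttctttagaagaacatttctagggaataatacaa
S100A9: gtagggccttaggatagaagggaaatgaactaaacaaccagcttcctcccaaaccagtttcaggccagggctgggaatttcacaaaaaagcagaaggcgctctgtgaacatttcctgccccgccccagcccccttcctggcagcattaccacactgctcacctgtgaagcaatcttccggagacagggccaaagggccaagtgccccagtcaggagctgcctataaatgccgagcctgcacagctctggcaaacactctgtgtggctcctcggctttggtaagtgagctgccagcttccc
Windows of 8 of the 9 members were found (not LYZ).

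Several features of the arrays bear on every value below. The arrays fell into 4 sets of 9 by exactly shared values, with the scrambled arrays of all experiments together and the treatments of each experiment apart. Between 2.39% and 6.3% of 7583 bright units held identical values on any pair of arrays within a set, against 0.105% to 0.87% across sets. For treated against scrambled, set and treatment cannot be told apart, whereas comparisons among treatments and among scrambled groups lie within a set. The unit of CYTOR itself was higher in the arrays labelled with CYTOR gapmers (6.07 to 7.45) than in their scrambled arrays (5.25 to 5.51). That of LINC00158 was lower in the arrays labelled with its gapmers (4.82 to 6.41) than in their scrambled arrays (7.5 to 8.8), and also lower in the RP11-161H23.5 treatments (5.08 to 5.95) than in their own (6.38 to 7.46). It averaged 7.22, 6.05 and 5.88 with CYTOR gapmer 1, gapmer 2 and gapmer 1+2, against 7.09 in their scrambled arrays. The CYTOR unit averaged 5.24, 4.84 and 4.51 in the LINC00158 treatments, against 6.21 in their scrambled arrays, and 4.43, 3.83 and 4.36 in the RP11-161H23.5 treatments, against 4.82. RP11-161H23.5 had no unit with its symbol. Directions below therefore belong to the arrays as labelled. Whether the labels of the CYTOR experiment hold, and whether the sets were summarised by RMA separately, was not tested, and either would change what a treated minus scrambled difference measures. The array medians were 3.82 to 3.9 in the CYTOR treatments, against 4.04 to 4.09 in their scrambled arrays.

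In scrambled arrays, only MNDA and FCN1 stood above the array's background. The threshold was 5.3 on the log2 scale, the 95th percentile of the brightest units of 400 olfactory receptor genes, a family that B cells are not known to use, whose median was 3.86. MNDA averaged 7.32 ± 0.7 over the 9 scrambled arrays (SD) and was above each array's own threshold on 9 of 9. FCN1 averaged 5.47 ± 0.3, just inside the threshold, and passed on 6 of 9. S100A9 lay just outside at 4.99 ± 0.27 and passed on 1 of 9. The scrambled means of the other 6 members were between 3.16 (S100A8) and 4.76 (CD163), with 0 of 9 arrays above the threshold for each. Signals of different units depend on their probes, so these levels say how far a unit stood from background and give no order of RNA amounts. The split depends on the threshold, since 6 members were above the median of all units and 1 (MNDA) was above the 99th percentile of the olfactory receptor genes or the 95th percentile of T, NK, erythroid and platelet markers.

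The B-cell label was checked in the same arrays. Of 13 measured B-cell markers, 12 were above background in scrambled arrays, among them CD79A (12.52) and CD79B (11.3), the signalling chains of the B-cell receptor, MS4A1 (9.82), which encodes CD20, and PAX5 (9.49), the B-lineage transcription factor. Of 35 other myeloid markers, 6 were above it, namely AIF1 (11.96), SIRPA (5.86), TYROBP (5.69), TREM1 (5.59), MARCO (5.36) and MS4A7 (5.34), while MPO (3.68) and ELANE (3.08), the granule enzymes that define neutrophil precursors, were not. SPI1, which encodes PU.1, a factor of both myeloid and B cells, was above background at 7.3. Of 15 T and NK cell markers 4 were above background, and of 11 erythroid and platelet markers 0 were. The median of the other myeloid markers per array ranged from 3.66 to 4.16 over all treated arrays and from 4 to 4.5 over the scrambled arrays. Its part in the results below was not tested.

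**Figure D1:**
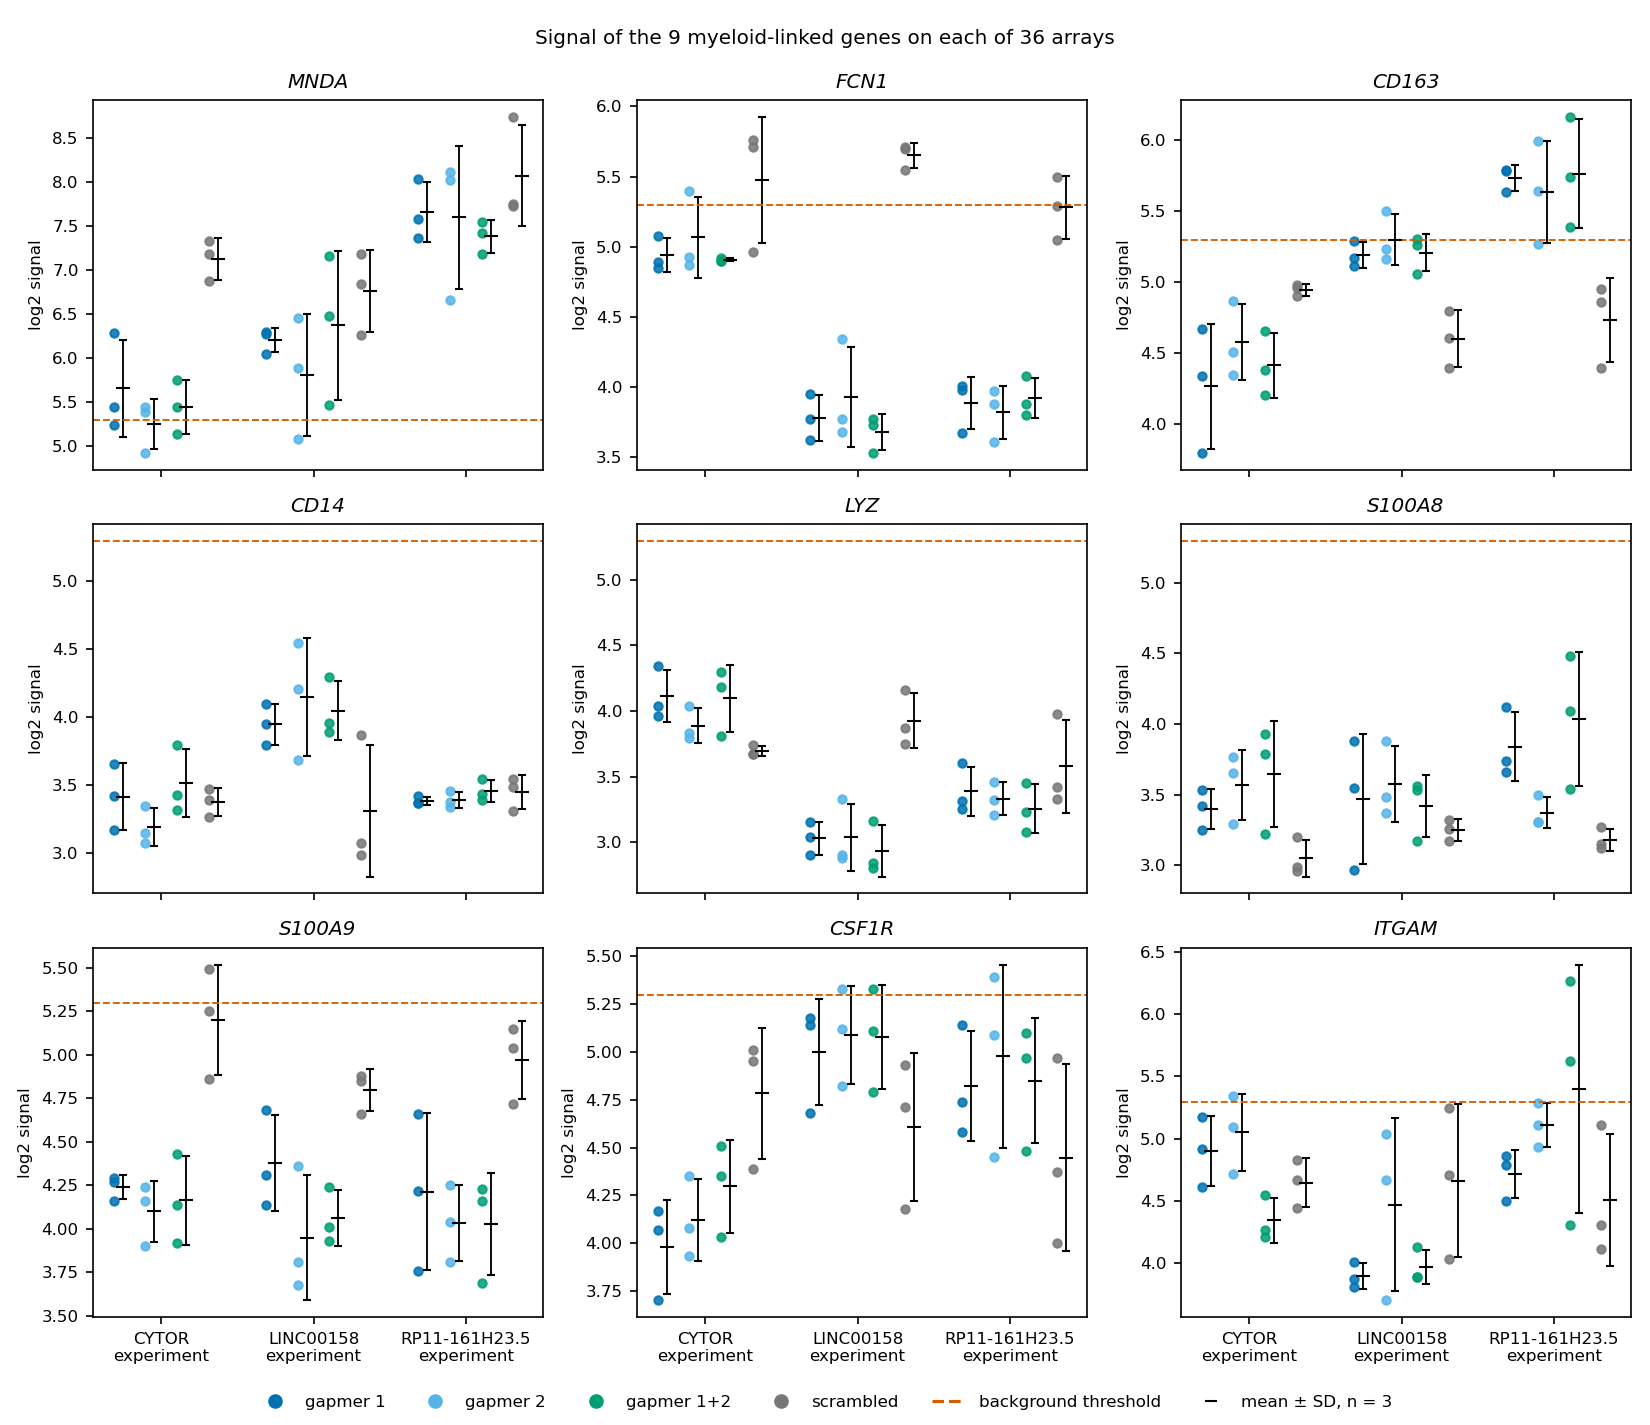
Log2 signal of each of the 9 genes on all 36 arrays, by experiment (x axis) and treatment (colour), with the mean ± SD of 3 arrays beside the points and the background threshold as a dashed line. The scrambled arrays of MNDA are all above the line, those of FCN1 lie around it, and those of the other 7 genes are below it except 1 array of S100A9 in the CYTOR experiment.

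Leaving aside MNDA in the CYTOR experiment, on which the choice of genes rests, 78 comparisons set a member against its own scrambled group, and limma called 23 at an adjusted p under 0.05, 17 lower and 6 higher. In the CYTOR experiment 4 of 24 were called, all lower. In the LINC00158 experiment 10 of 27 were called, 8 lower and 2 higher, and in the RP11-161H23.5 experiment 9 of 27, 5 lower and 4 higher. By treatment (gapmer 1, gapmer 2, gapmer 1+2), 13.1%, 14.2% and 10.5% of all tested units were called in the CYTOR experiment (11.4%, 12.4% and 8.93% lower, 1.77%, 1.84% and 1.54% higher). The members called there, MNDA aside, were S100A9 in each treatment and CSF1R with gapmer 1. In the LINC00158 experiment the counts were 2, 4 and 4 of the 9 members, against 10.8%, 17.4% and 15% (6.29%, 10.5% and 8.82% lower, 4.55%, 6.89% and 6.19% higher). They were 2, 3 and 4 in the RP11-161H23.5 experiment, against 13.3%, 12.2% and 16.3% (7.11%, 7.03% and 9.3% lower, 6.19%, 5.2% and 6.98% higher). The direction of the calls over all units depended on the normalization. In the CYTOR treatments 1202, 1246 and 1044 units were called higher and 7707, 8411 and 6060 lower, and after quantile normalization 2067, 2330 and 1491 higher and 2006, 2266 and 1413 lower. After quantile normalization more units were also higher than lower in the LINC00158 treatments (3445, 5187 and 4952 against 2449, 4233 and 3533) and the RP11-161H23.5 treatments (5100, 4404 and 5816 against 3907, 3627 and 5046). The calls of members fell on FCN1, S100A9, CD163 and LYZ, with single calls for S100A8 and CSF1R and none for CD14 or ITGAM. In bulk RNA, fewer cells with a transcript and less transcript per cell cannot be told apart. Statements below that treated and scrambled arrays did or did not overlap only describe the readings. The share of all units without overlap was not counted. CD163, LYZ and S100A8 in the CYTOR experiment had no overlap and were not called.

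MNDA was the member above background on all scrambled arrays, and its lower level in the CYTOR treatments is the value that led to the choice of these genes. In arrays labelled CYTOR, MNDA read 6.28, 5.24 and 5.44 with gapmer 1, 5.38, 4.92 and 5.44 with gapmer 2, and 5.75, 5.14 and 5.44 with gapmer 1+2, against 6.87, 7.33 and 7.18 with scrambled gapmer. Every treated array was below every scrambled array, and 7 of the 9 stayed above their own background threshold. The differences were -1.47, -1.88 and -1.68 (SE 0.29), and -1.15, -1.52 and -1.39 after quantile normalization.

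MNDA in the LINC00158 experiment read 6.3, 6.27 and 6.05 with gapmer 1, 6.46, 5.08 and 5.89 with gapmer 2, and 7.16, 5.47 and 6.48 with gapmer 1+2, against 6.84, 6.26 and 7.18 with scrambled gapmer. The groups overlapped, with 4 of 9 treated arrays below all scrambled arrays. The differences of -0.55, -0.95 and -0.39 (SE 0.44) did not pass the test (adjusted p = 0.418, 0.148 and 0.564), and their 95% intervals reached from -1.91 to 0.57. For gapmer 1+2 the sign rested on replicate 2, without which the difference was 0.06.

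In the RP11-161H23.5 experiment MNDA read higher on average in every group than in any group of the other experiments, at 8.03, 7.58 and 7.36 with gapmer 1, 8.12, 6.66 and 8.02 with gapmer 2, and 7.18, 7.55 and 7.42 with gapmer 1+2, against 8.74, 7.73 and 7.75 with scrambled gapmer. Here 6 of 9 treated arrays were below all scrambled arrays. The differences of -0.42, -0.47 and -0.69 (SE 0.39) did not pass the test (adjusted p = 0.511, 0.459 and 0.246).

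The scrambled groups themselves were apart in MNDA. MNDA averaged 6.76 in the scrambled group of LINC00158 and 8.07 in that of RP11-161H23.5, a difference of -1.31 (SE 0.33; 95% interval -2.06 to -0.57; adjusted p = 0.0543) between groups with the same scrambled label. The difference did not pass the test, but did after quantile normalization (-1.65, adjusted p = 0.0271) and with a trended robust prior (adjusted p = 0.0351). Against the scrambled arrays of the CYTOR and the LINC00158 experiments, the RP11-161H23.5 treatments gave MNDA differences of 0.26 to 0.53 and of 0.62 to 0.9, none called. The LINC00158 treatments were lower in MNDA than the RP11-161H23.5 scrambled arrays, by -1.87, -2.26 and -1.7 (all called), and gapmer 2 was also called against the CYTOR scrambled arrays (-1.32, adjusted p = 0.021). In the CYTOR treatments MNDA was lower against every scrambled group, a description with no test, since that change led to the choice of the genes. None of the 27 comparisons between scrambled groups was called by limma (2 at an unadjusted p under 0.05, both MNDA), and 0%, 1.53% and 5.19% of all units were called in the 3 pairs.

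The other PYHIN genes were all above background, IFI16 and AIM2, both DNA sensors, at scrambled means of 15.75 and 10.73, and PYHIN1 at 6.96. IFI16 was lower with CYTOR gapmer 2 (-1.08, SE 0.24, adjusted p = 0.0151) and was not called with gapmer 1 (-0.34) or gapmer 1+2 (-0.76, adjusted p = 0.0645). AIM2 was lower in all RP11-161H23.5 treatments (-1.24, -1.17 and -1.31, SE 0.27, adjusted p = 0.0144, 0.0189 and 0.00905) and with gapmer 2 and gapmer 1+2 of LINC00158 (-1.32 and -1.59, SE 0.38, adjusted p = 0.0381 and 0.0225). PYHIN1 was called in no treatment. In the CYTOR treatments AIM2 was not called (0.12, -0.97 and -0.46).

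FCN1 was lower in every LINC00158 and RP11-161H23.5 treatment. In arrays labelled LINC00158, FCN1 read 3.62, 3.95 and 3.77 with gapmer 1, 4.34, 3.68 and 3.77 with gapmer 2, and 3.73, 3.77 and 3.53 with gapmer 1+2, against 5.7, 5.71 and 5.55 with scrambled gapmer. All 9 treated arrays lay below the scrambled arrays, near the olfactory receptor median, and none passed its background threshold. The differences were -1.87, -1.72 and -1.98 (SE 0.2; adjusted p = 0.000898, 0.00134 and 0.000639). With the treated arrays at background, the size of these differences is limited by how near the scrambled arrays were to it.

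FCN1 in the RP11-161H23.5 experiment read 3.67, 4.01 and 3.98 with gapmer 1, 3.88, 3.61 and 3.97 with gapmer 2, and 4.08, 3.8 and 3.88 with gapmer 1+2, against 5.5, 5.05 and 5.29 with scrambled gapmer. The groups again did not overlap, and 0 of 9 treated arrays passed the threshold. The differences were -1.39, -1.46 and -1.36 (SE 0.18; adjusted p = 0.00125, 0.00103 and 0.00126). These 6 calls held in every alternative run, including without any 1 array and against the scrambled arrays of either other experiment.

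In the CYTOR experiment FCN1 read 4.89, 4.85 and 5.08 with gapmer 1, 4.93, 4.87 and 5.4 with gapmer 2, and 4.92, 4.9 and 4.9 with gapmer 1+2, against 4.96, 5.76 and 5.71 with scrambled gapmer. Of the 9 treated arrays 7 were below all scrambled arrays, and the first scrambled array was itself close to them. The differences of -0.54, -0.41 and -0.57 (SE 0.23) did not pass the test (adjusted p = 0.147, 0.257 and 0.139).

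LYZ, the other secreted protein, was below background on every array, from 2.8 to 4.34. Its signal was lower in the LINC00158 treatments, at 3.15, 3.04 and 2.9 with gapmer 1, 2.9, 3.33 and 2.88 with gapmer 2, and 2.84, 2.8 and 3.16 with gapmer 1+2, against 3.75, 3.87 and 4.16 with scrambled gapmer. All 9 treated arrays were below the scrambled arrays, and the differences were -0.9, -0.89 and -0.99 (SE 0.2; adjusted p = 0.0209, 0.0153 and 0.0115). Only the gapmer 1+2 call held in every alternative run. The gapmer 1 call was lost on leaving out any of 4 arrays in turn (scrambled replicate 2 or 3, gapmer 1 replicate 2 or 3, adjusted p up to 0.0717), and that of gapmer 2 without its replicate 3 (adjusted p = 0.0522). With only its own groups in the fit, gapmer 1 also lost the call (adjusted p = 0.0876). So did gapmer 2 against the RP11-161H23.5 scrambled arrays (adjusted p = 0.0515). In the CYTOR experiment the 9 treated arrays of LYZ were all above the scrambled arrays (3.79 to 4.34, against 3.67 to 3.74), with differences of 0.42, 0.19 and 0.4 that did not pass the test (adjusted p = 0.145, 0.505 and 0.175). In the RP11-161H23.5 experiment the differences were -0.19, -0.25 and -0.32, none called. Because both groups read below the threshold, these values describe the unit's signal and do not show that LYZ RNA was present.

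CD163, the scavenger receptor for haemoglobin bound to haptoglobin, had higher signal in the RP11-161H23.5 treatments. It read 5.79, 5.78 and 5.63 with gapmer 1, 5.99, 5.64 and 5.27 with gapmer 2, and 5.39, 6.16 and 5.74 with gapmer 1+2, against 4.86, 4.4 and 4.95 with scrambled gapmer. No array overlapped between the groups, and all 9 treated arrays passed their own background threshold while none of the scrambled arrays did. The differences were 1, 0.9 and 1.03 (SE 0.25; adjusted p = 0.0233, 0.0367 and 0.0172). Leaving out single arrays ended the call in 4, 7 and 2 of 12 cases (adjusted p up to 0.0777, 0.118 and 0.0617), RP11-161H23.5 scrambled replicate 2 being among them for all 3 treatments. With only their own groups in the fit, gapmer 2 and gapmer 1+2 also lost it (adjusted p = 0.0676 and 0.0558).

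In the LINC00158 experiment CD163 read 5.17, 5.11 and 5.29 with gapmer 1, 5.5, 5.16 and 5.23 with gapmer 2, and 5.06, 5.3 and 5.26 with gapmer 1+2, against 4.4, 4.8 and 4.61 with scrambled gapmer. All 9 treated arrays were above the scrambled arrays, and 5 of them passed the threshold. The differences were 0.59, 0.69 and 0.6 (SE 0.18; adjusted p = 0.0559, 0.0247 and 0.0434), so gapmer 1 missed the call. The gapmer 2 and gapmer 1+2 calls were lost in 4 and 9 of 12 cases without 1 array (adjusted p up to 0.0858 and 0.137). Against the CYTOR scrambled arrays the gapmer 2 difference was 0.35 and was not called (adjusted p = 0.273). Against the RP11-161H23.5 scrambled arrays it was 0.56, also not called (adjusted p = 0.0915). Gapmer 1+2 gave 0.26 and 0.47 against these groups, neither called (adjusted p = 0.436 and 0.171), and lost the call without a filter on dim units (adjusted p = 0.0539).

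In the CYTOR experiment CD163 read 3.8, 4.34 and 4.67 with gapmer 1, 4.87, 4.35 and 4.51 with gapmer 2, and 4.38, 4.66 and 4.21 with gapmer 1+2, against 4.9, 4.96 and 4.98 with scrambled gapmer. All 9 treated arrays were below the scrambled arrays, though gapmer 2 replicate 1 (4.87) was close to the lowest of them (4.9). The differences of -0.68, -0.37 and -0.53 (SE 0.24) did not pass the test (adjusted p = 0.0812, 0.316 and 0.173).

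CSF1R, the receptor for the growth factors CSF-1 and IL-34, was below the threshold in all scrambled arrays and was called once, with CYTOR gapmer 1. There it read 4.17, 3.7 and 4.07 with gapmer 1, against 4.39, 5.01 and 4.95 with scrambled gapmer (difference -0.8, SE 0.23, adjusted p = 0.0405). The call was lost in 7 of 12 cases that left out 1 array, after quantile normalization (-0.51, adjusted p = 0.194) and against either other scrambled group. CYTOR gapmer 2 and gapmer 1+2 gave -0.66 and -0.49, not called. In the LINC00158 and RP11-161H23.5 treatments the differences were all above 0, from 0.39 to 0.48 and from 0.37 to 0.53, and none was called.

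CD14, which presents bacterial lipopolysaccharide to TLR4 and LY96, stayed at background on all arrays, from 2.99 to 4.55, and was called in no treatment. Its largest differences were in the LINC00158 treatments (0.64, 0.84 and 0.74, SE 0.28, adjusted p = 0.153, 0.0598 and 0.094), where 7 of 9 treated arrays were above all scrambled arrays. ITGAM, the alpha chain of complement receptor 3, was called in no treatment either. Its brighter unit ranged from 3.7 to 6.27, the highest reading being in an array labelled RP11-161H23.5 gapmer 1+2 whose group also held a reading of 4.31, and its dimmer unit ranged from 2.92 to 4.08.

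S100A9 was called lower in 7 of 9 treatments, more than any other member. In arrays labelled CYTOR, S100A9 read 4.29, 4.16 and 4.27 with gapmer 1, 4.24, 3.9 and 4.16 with gapmer 2, and 4.43, 3.92 and 4.14 with gapmer 1+2, against 5.25, 5.49 and 4.86 with scrambled gapmer. The groups did not overlap, and 1 scrambled array alone passed its background threshold. The differences were -0.96, -1.1 and -1.04 (SE 0.2; adjusted p = 0.0141, 0.0077 and 0.0126). All tested units in these arrays had a median difference of -0.23, -0.257 and -0.197. After quantile normalization the S100A9 differences were -0.6, -0.79 and -0.71, of which gapmer 2 alone was called (adjusted p = 0.103, 0.0436 and 0.0735). With only their own groups in the fit, gapmer 2 and gapmer 1+2 were not called (adjusted p = 0.0521 and 0.0518). Nor was gapmer 1 against the LINC00158 scrambled arrays (adjusted p = 0.0758).

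S100A9 in the RP11-161H23.5 experiment read 3.76, 4.22 and 4.66 with gapmer 1, 4.04, 4.25 and 3.81 with gapmer 2, and 3.69, 4.23 and 4.16 with gapmer 1+2, against 5.04, 4.72 and 5.15 with scrambled gapmer. The groups did not overlap, and gapmer 2 and gapmer 1+2 were called (-0.94 each, SE 0.25, adjusted p = 0.0329 and 0.0257) while gapmer 1 was not (-0.76, adjusted p = 0.0664). In the LINC00158 experiment it read 4.31, 4.14 and 4.68 with gapmer 1, 3.81, 3.68 and 4.36 with gapmer 2, and 4.24, 3.93 and 4.01 with gapmer 1+2, against 4.88, 4.66 and 4.85 with scrambled gapmer. Gapmer 2 and gapmer 1+2 were called (-0.85 and -0.74, SE 0.22, adjusted p = 0.0266 and 0.0466) and gapmer 1 was not (-0.42, adjusted p = 0.226). Each of these 4 calls was lost on leaving out single arrays, in 5, 3, 5 and 8 of 12 cases (adjusted p up to 0.104, 0.0807, 0.0898 and 0.139). Scrambled replicate 1 was among the arrays concerned in all 4. The LINC00158 gapmer 1+2 call was also lost without a filter on dim units and after quantile normalization (adjusted p = 0.056 and 0.0678).

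S100A8, the partner of S100A9 in calprotectin, was called lower in no treatment. It stayed below background on every array, from 2.96 to 4.48, and 9, 7 and 9 of its 9 treated arrays were above all scrambled arrays in the CYTOR, LINC00158 and RP11-161H23.5 experiments. One comparison was called, RP11-161H23.5 gapmer 1+2, at 3.54, 4.09 and 4.48, against 3.12, 3.15 and 3.27 with scrambled gapmer (difference 0.86, SE 0.23, adjusted p = 0.0267, lost in 5 of 12 cases without 1 array). That S100A8 call was also lost with only its own groups in the fit (adjusted p = 0.0826). The difference between the S100A8 and S100A9 changes was not tested.

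**Figure D2:**
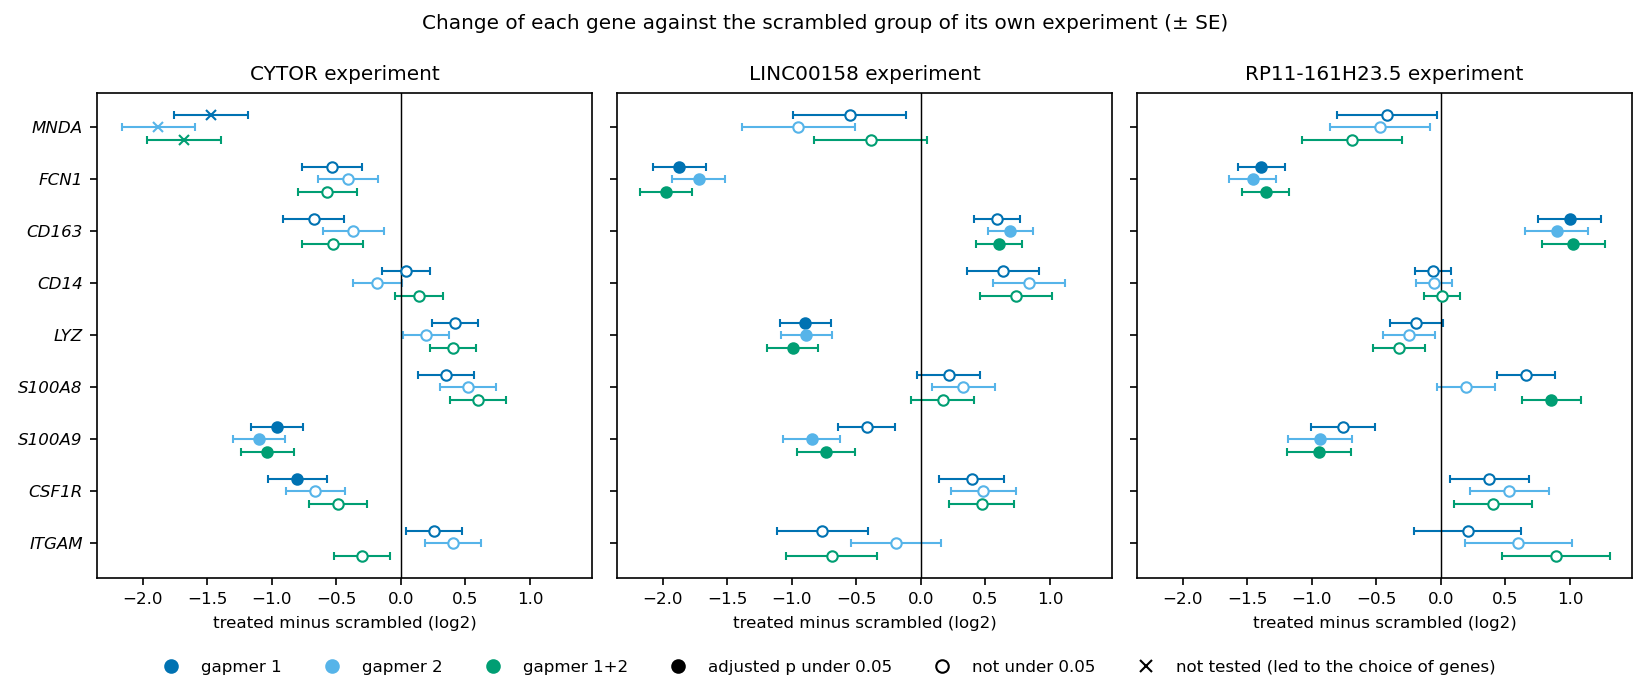
Treated minus scrambled difference (log2, x axis) of each gene, with its SE, for the 3 treatments of each experiment, filled where limma's adjusted p was under 0.05, with crosses for MNDA in the CYTOR experiment, which was not tested. The FCN1 points of the LINC00158 and RP11-161H23.5 experiments lie between -1.98 and -1.36, those of S100A9 are below 0 in all 9 treatments, and those of CD163 are below 0 in the CYTOR experiment and above 0 in the others.

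Within an experiment, no difference between treatments was detectable in any member. The single gapmers were compared with each other, and the combination with their mean, in 54 comparisons, of which limma called 0 (1 at an unadjusted p under 0.05), as it did for all tested units (0%). The differences ranged from -0.63 to 0.49, and their 95% intervals reached from -1.35 to 1.35. The 1 comparison past the unadjusted level was ITGAM with CYTOR gapmer 1+2 against the single gapmers (-0.63, SE 0.19, adjusted p = 0.633).

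The change of a gene could differ between experiments, and this was tested in a joint limma fit of the 36 arrays on the mean change over the 3 treatments. Leaving aside the pairs of MNDA with CYTOR, 11 of 25 comparisons were called. Of the members other than MNDA, 5 were called between CYTOR and LINC00158 (25.8% of all units) and 4 between CYTOR and RP11-161H23.5 (19%). Between LINC00158 and RP11-161H23.5, 2 of 9 members were called (9.68%). All scrambled groups belong to 1 of the array sets, while the treatments of different experiments are in different sets.

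The change of FCN1 was less negative in the CYTOR than in the LINC00158 experiment, by 1.35 (SE 0.23, adjusted p = 9.13e-05), and than in the RP11-161H23.5 experiment, by 0.9 (SE 0.23, adjusted p = 0.00605, but 0.142 at most without replicate 1 or 3). CD163 had mean changes of -0.53 for CYTOR, where no treatment was called, 0.63 for LINC00158 and 0.97 for RP11-161H23.5. It differed by -1.15 (SE 0.25, adjusted p = 0.00123) for CYTOR minus LINC00158 and -1.5 (SE 0.25, adjusted p = 0.000101) for CYTOR minus RP11-161H23.5. These tests are of the difference and do not show that CD163 was lower in the CYTOR treatments. LYZ differed in all 3 pairs, by 1.27 (SE 0.21, adjusted p = 7.58e-05) for CYTOR minus LINC00158, 0.59 (adjusted p = 0.0479) for CYTOR minus RP11-161H23.5 and -0.67 (adjusted p = 0.0415) for LINC00158 minus RP11-161H23.5. Both smaller LYZ differences lost the call when any 1 replicate number was left out (adjusted p up to 0.373 and 0.294), whereas the LYZ and FCN1 differences for CYTOR minus LINC00158 and both CD163 differences kept it.

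CSF1R differed by -1.1 and -1.09 (SE 0.31, adjusted p = 0.00978 and 0.0137) between CYTOR and the other experiments. CD14 differed by -0.74 (SE 0.24, adjusted p = 0.0214) for CYTOR minus LINC00158 and by 0.77 (adjusted p = 0.0365) for LINC00158 minus RP11-161H23.5. The CSF1R calls were lost without replicate 2 or 3 (adjusted p up to 0.218 and 0.241), the first CD14 call without replicate 1 or 2 (up to 0.261) and the second without any 1 replicate (up to 0.393). For S100A9, which was lower in all experiments, no pair was called, and the differences of -0.36, -0.15 and 0.21 had 95% intervals from -0.89 to 0.74. MNDA's mean change was -1.68 for CYTOR, -0.63 for LINC00158 and -0.53 for RP11-161H23.5, which is a description with no test for CYTOR, since that change led to the choice of the genes. Between the other experiments MNDA's change was not called different.

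**Figure D3:**
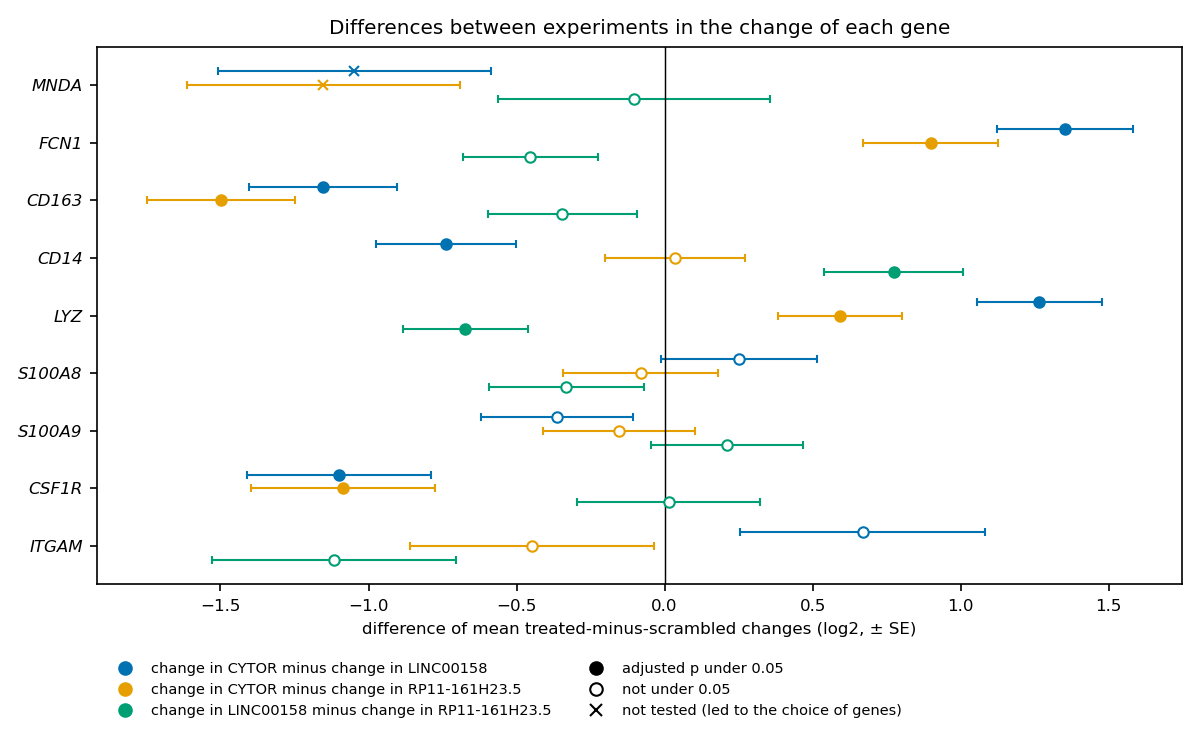
Difference between experiments in the mean treated minus scrambled change of each gene (log2, x axis, ± SE), for the 3 pairs of experiments, filled where limma's adjusted p was under 0.05, with crosses for the MNDA pairs with CYTOR, which were not tested. CD163 and CSF1R lie left of 0 and FCN1 and LYZ right of 0 in both pairs that start with CYTOR, and no pair of S100A8, S100A9 or ITGAM is filled.

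Few genes that work with the members were called. Among 12 tested receptor partners and ligands in the CYTOR experiment, 2 were lower in each treatment (16.7%, against 11.4%, 12.4% and 8.93% of all tested units). With gapmer 2 alone 1 was higher, FCN3, another ficolin (0.73, SE 0.19), given with no test for the reason below. HP, which encodes haptoglobin, the CD163 ligand, was lower in all 3 (-0.81, -0.8 and -1.08, SE 0.17, adjusted p = 0.0119, 0.0121 and 0.00487), as was ITGAX, which like ITGAM pairs with ITGB2 (-0.78, -1.31 and -0.74, SE 0.2, adjusted p = 0.0313, 0.00381 and 0.0421). In the LINC00158 experiment 0 of 11 were called in any treatment, against 10.8%, 17.4% and 15% of all tested units. The 2 brightest there, CSF1 (mean change -0.99), the CSF1R ligand, and LY96 (mean change -0.87), were not called. In the RP11-161H23.5 experiment 0, 1 and 2 of 11 were called, against 13.3%, 12.2% and 16.3% of all tested units. TLR4 was among them with gapmer 1+2 (-0.75, SE 0.19, adjusted p = 0.0238). In scrambled arrays FCN3 (3.46), HP (4.75), ITGAX (5.23) and TLR4 (4.68) were below background. Outside the members, only units whose mean over the 12 arrays of an experiment reached the median of all units were tested. That median was 3.88 in the CYTOR experiment, so FCN3 may have passed only through its higher treated arrays.

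Of the other myeloid markers, 2 of 19 were lower in each CYTOR treatment and none higher (10.5%, a share near the background above). In the LINC00158 treatments 0, 1 and 1 of 15 were lower, against 6.29%, 10.5% and 8.82% of all tested units. In each of them 1 was higher (CSF2RA), against 4.55%, 6.89% and 6.19%. In the RP11-161H23.5 treatments 1, 2 and 4 of 18 were lower and none higher, against 7.11%, 7.03% and 9.3% of all tested units called lower. TYROBP, the adaptor of activating receptors on myeloid and NK cells, was lower in all RP11-161H23.5 treatments (-0.84, -1.05 and -1.12, SE 0.21, adjusted p = 0.0259, 0.0107 and 0.00607) and in LINC00158 gapmer 2 and gapmer 1+2 (-0.86 and -0.87, SE 0.22, adjusted p = 0.0232 and 0.025). CSF2RA, the GM-CSF receptor chain, read higher in the LINC00158 treatments (0.83, 0.69 and 0.71, SE 0.19) from a scrambled mean of 3.73, below background. The median of all units needed for testing there was 3.97. CSF2RA may have passed only through its higher treated arrays, so its calls are given with no test. CEBPB, a transcription factor of myeloid and other cells, was lower in all LINC00158 treatments (-0.82, -0.95 and -0.78, SE 0.21) and all RP11-161H23.5 treatments (-0.82, -0.8 and -0.84, SE 0.17), with adjusted p of at most 0.032. Its scrambled mean of 5.07 was also below background. Of 9 measured myeloid transcription factors 5 were tested in each experiment, and at most 1 of them was called in any treatment, against 10.5% to 17.4% of all tested units.

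The S100 genes of the cluster that holds S100A8 and S100A9 were counted against the share of all tested units called lower. Of the 11 tested genes of that cluster in the CYTOR experiment, 4, 2 and 3 were lower and 0 higher. The share of all tested units called lower there was 11.4%, 12.4% and 8.93%, and S100A9 was among the genes counted in each treatment. S100A10, the partner of annexin A2, was lower in all 3 (-0.81, -0.77 and -0.83, SE 0.23, adjusted p = 0.0392, 0.0436 and 0.04), and below background at 4.7 in scrambled arrays. In the LINC00158 experiment 0, 1 and 1 of 10 were lower, S100A9 in both cases, against 6.29%, 10.5% and 8.82% of all tested units. In the RP11-161H23.5 experiment 0, 2 and 2 of 13 were lower, against 7.11%, 7.03% and 9.3% of all tested units, and 0, 0 and 1 higher. S100A9 was among the lower genes in both cases, and the higher gene was S100A8. Beside S100A9, only S100A4 and S100A11 were lower, in 1 treatment each, a share near that of all units.

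Interferon-response genes were counted against the share of all tested units called lower. Of 23 tested, 3, 8 and 6 were lower in the CYTOR treatments, against 11.4%, 12.4% and 8.93% of units, and 1, 0 and 0 higher. In the LINC00158 treatments 6, 10 and 7 of 23 were lower (26.1%, 43.5% and 30.4%, against 6.29%, 10.5% and 8.82%), and in the RP11-161H23.5 treatments 2, 3 and 10 (8.7%, 13% and 43.5%, against 7.11%, 7.03% and 9.3%), with none higher in either. The shares with CYTOR gapmer 1 and RP11-161H23.5 gapmer 1 were thus near the background. ISG15, a ubiquitin-like protein induced by interferon, was lower in all LINC00158 treatments (-2.71, -2.99 and -2.79, SE 0.45, adjusted p = 0.00769, 0.00406 and 0.00565) and all RP11-161H23.5 treatments (-1.25, -1.69 and -2.16, SE 0.27, adjusted p = 0.0141, 0.00378 and 0.000919). In the CYTOR treatments ISG15 was higher with gapmer 1 (1.09, SE 0.28, adjusted p = 0.0299). SAMD9L, an interferon-induced antiproliferative protein, was lower in all CYTOR treatments (-1.26, -1.73 and -1.82, SE 0.32, adjusted p = 0.0276, 0.00752 and 0.00806). The median change of the list was -0.14, -0.49 and -0.43 in the CYTOR treatments, against -0.23, -0.257 and -0.197 over all tested units. It was -0.82, -1.08 and -0.91 in the LINC00158 treatments, against -0.107, -0.0967 and -0.11, and -0.38, -0.64 and -0.9 in the RP11-161H23.5 treatments, against -0.0333, -0.0367 and -0.0467.

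B-cell markers were called lower mainly in 3 treatments. Of 13 tested, 0, 1 and 0 were lower in the CYTOR treatments, 0, 6 and 5 in the LINC00158 treatments and 1, 1 and 5 in the RP11-161H23.5 treatments, with none higher. The counts of 5 and 6 (38.5% and 46.2%) compare with 8.82% to 10.5% of all units called lower in those treatments, and the others were near or below the background. CD79B was lower with LINC00158 gapmer 2 and gapmer 1+2 (-1.68 and -1.88, SE 0.43, adjusted p = 0.0249 and 0.019). Of the T and NK cell markers, 1, 2 and 1 of 8 were lower in the CYTOR treatments, against 11.4%, 12.4% and 8.93% of all tested units. In each LINC00158 treatment 2 of 9 were lower, against 6.29%, 10.5% and 8.82%. In the RP11-161H23.5 treatments 1, 1 and 2 of 7 were lower, against 7.11%, 7.03% and 9.3%, and 0, 1 and 0 were higher. With so few genes tested, a single call is a share above or near these. The median change of that list was 0.0667, 0.253 and -0.153 in the LINC00158 treatments. CD247, the T-cell receptor zeta chain, was lower in all CYTOR treatments (-1.09, -1.15 and -0.8, SE 0.18, adjusted p = 0.00519, 0.00383 and 0.0207). GNLY and NKG7, proteins of cytotoxic granules, were lower in all LINC00158 treatments (-1.35, -0.99 and -1.04, and -0.94, -1.08 and -0.92, with adjusted p of at most 0.0473). TRAT1, an adaptor of the T-cell receptor, was higher with RP11-161H23.5 gapmer 2 (1.31, SE 0.33, adjusted p = 0.0255). In scrambled arrays CD247 (4.73), GNLY (4.54) and TRAT1 (5.16) were below background. Of 5 tested erythroid and platelet markers at most 2 were called in any CYTOR treatment, against 10.5% to 14.2% of all tested units. Of the 4 tested in each other experiment 0 were, against 10.8% to 17.4%. GP1BA, called higher with CYTOR gapmer 1+2, had a scrambled mean of 3.66, below the median of 3.88 needed for testing, and is given with no test. Olfactory receptor genes, tested without a filter on dim units, were called in 4.5% to 7.25% of 400 genes, with median changes between -0.218 and -0.00667.

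The units whose 12 group means ran closest to those of MNDA and FCN1 were sought among 11673 named units above background, by the root mean square (RMS) difference between profiles centred on their own means. For MNDA they were ZNF711 (0.256), CYBB (0.269), APP (0.306), SPATA31D1 (0.317) and UBAC2-AS1 (0.337), against an RMS spread of 0.917 in MNDA itself. CYBB, the catalytic subunit of the phagocyte NADPH oxidase, had differences of -1.2, -1.41 and -1.19 in the CYTOR treatments and of -0.45, -0.54 and -0.85 in the RP11-161H23.5 treatments. In the LINC00158 treatments they were -0.89, -1.49 and -1.27, further below 0 than those of MNDA there (-0.55, -0.95 and -0.39). For FCN1 the closest were PRX (0.159), C19orf67 (0.197), GLRXP (0.211), HLA-L (0.213) and PI4KB (0.219), against an RMS spread of 0.722 in FCN1. PRX, which encodes periaxin of myelinating Schwann cells, had differences of -1.64, -1.76 and -1.89 in the LINC00158 treatments and of -1.51, -1.5 and -1.42 in the RP11-161H23.5 treatments. In the CYTOR treatments they were -0.26, -0.18 and 0.0067. Since these genes were picked for their likeness, their differences are given with no test. The 12 group means share the array sets, and likeness of profile is a description of these arrays.

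**Figure D4:**
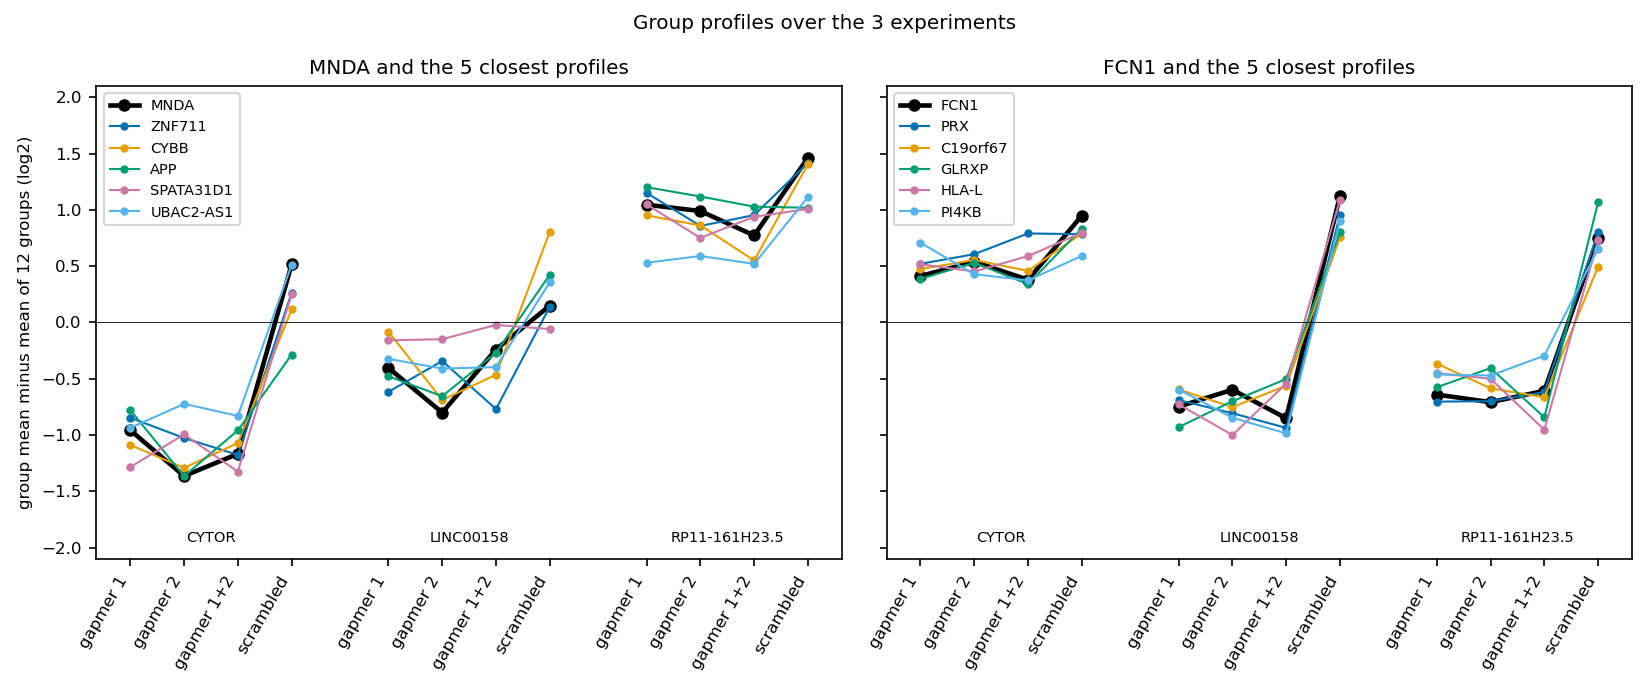
Group mean minus the mean of the 12 groups (log2, y axis) for MNDA (left) and FCN1 (right) in black with their 5 closest profiles in colour, by treatment and experiment. The MNDA profiles are lowest in the CYTOR treatments and highest in the RP11-161H23.5 experiment, and the FCN1 profiles are high in all scrambled groups and the CYTOR treatments and low in the treatments of the other experiments.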

How the data were processed

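The authors deposited 135750 unit signals per array; the submitters' processing notes name RMA and Affymetrix Expression Console. Tool versions and genome build were not given in the sources used here. That the deposited signals are log2 values was judged from their range, 1.96 to 19.93. An array gives no read depth, and 3 arrays per group limit the precision. Symbols came from the platform table, with 1 symbol for 36176 units, several for 1119 and none for 98455; for genes with several units the brightest was used.

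For each experiment, units with a mean below the median of all units were left out and the members always kept: of the 9, 7 in the CYTOR and 6 in each other experiment passed alone. A model of 4 group means was fitted to the 12 arrays with limma 3.58.1 (lmFit, eBayes) in R 4.3.3, with Benjamini-Hochberg adjustment over all tested units, two-sided, called under 0.05. The 9 scrambled arrays were fitted alone, and all 36 arrays jointly for differences between experiments. The script was tested on simulated data. Intervals are 95% intervals of the fit.

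The members and lists were chosen with earlier results of these data known. Named genes were the 9 members, the 5 closest profiles of each member above background and, per other list and experiment, up to 4 called genes by mean change, or the 2 with the highest scrambled level where none was called. PYHIN1, MPO, ELANE, SPI1, MS4A1, the target units and any other gene outside this rule were chosen after their values were seen. Alternatives were no filter or a 75th percentile filter, quantile normalization, a trended robust prior, a replicate block, fewer or more arrays in the fit, other experiments' scrambled arrays, single arrays left out and other background thresholds.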

Additional observations from a re-analysis of the deposited data

Results flagged for a closer look

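The changes of 5 members against their own scrambled groups differed between experiments by the joint limma test, and no explanation for these differences was weighed. Of all units, 25.8%, 19% and 9.68% were called for CYTOR minus LINC00158, CYTOR minus RP11-161H23.5 and LINC00158 minus RP11-161H23.5. FCN1 differed by 1.35 for CYTOR minus LINC00158 (adjusted p = 9.13e-05) and by 0.899 for CYTOR minus RP11-161H23.5 (adjusted p = 0.00605). CD163 differed by -1.15 for CYTOR minus LINC00158 (adjusted p = 0.00123) and by -1.5 for CYTOR minus RP11-161H23.5 (adjusted p = 0.000101), with all 9 treated arrays below the scrambled arrays in the CYTOR experiment and all 9 above them in each of the others. No CYTOR treatment was called for CD163 against its scrambled group. LYZ differed by 1.27, 0.592 and -0.673 for CYTOR minus LINC00158, CYTOR minus RP11-161H23.5 and LINC00158 minus RP11-161H23.5 (adjusted p = 7.58e-05, 0.0479 and 0.0415). CSF1R differed by -1.1 for CYTOR minus LINC00158 and by -1.09 for CYTOR minus RP11-161H23.5 (adjusted p = 0.00978 and 0.0137). CD14 differed by -0.738 for CYTOR minus LINC00158 and by 0.773 for LINC00158 minus RP11-161H23.5 (adjusted p = 0.0214 and 0.0365). Leaving out 1 replicate number ended both CSF1R calls and the first CD14 call in 2 of 3 cases. The FCN1 call for CYTOR minus RP11-161H23.5 was also lost in 2 of 3. The second CD14 call and both LYZ calls with RP11-161H23.5 were lost in 3 of 3. Groups of 3 arrays were too small for a test of single outlying arrays.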

How the results depend on the processing

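Calls of members against their own scrambled group numbered 7 (MNDA's 3 included), 10 and 9 of 27 in the CYTOR, LINC00158 and RP11-161H23.5 experiments. MNDA's 3 are part of every CYTOR count in this paragraph and are a description with no test. The share of all units called moved with the setting too. It ran from 6% to 18.7% for CYTOR gapmer 1, from 0.296% to 19.6% for LINC00158 gapmer 1 and from 8.14% to 15.8% for RP11-161H23.5 gapmer 1. The counts below therefore describe the settings and are not read as results about the members. Without 1 array the counts ranged from 6 to 10, from 6 to 11 (6 without LINC00158 scrambled replicate 1 or 2) and from 5 to 9 (5 without any of the 3 RP11-161H23.5 scrambled arrays). The CYTOR count was 4 after quantile normalization and 4 when each fit held a single treatment and its scrambled group, and the RP11-161H23.5 count was 14 against the LINC00158 scrambled arrays. Calls between scrambled groups numbered 1, not 0, after quantile normalization and 1 with the trended robust prior, MNDA in both. The 11 differences between experiments became 5 to 7 without replicate 1, 2 or 3. Members above background numbered 6 by the median of all units, 1 by the 99th percentile of olfactory receptor genes and 1 by the T, NK, erythroid and platelet markers. With the replicate number as a block the counts were 6, 9 and 8, and 12 differences between experiments (2 of them MNDA's, given with no test); the numbers did not pair the arrays, since 4 of 54 same-numbered pairs correlated above 0.1 (from -0.183 to 0.185).

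The alternatives were run on the called differences and on MNDA, not on other uncalled differences. Among them the signs that turned were MNDA's. LINC00158 gapmer 1+2 ranged from -0.785 to 0.06 without single arrays, the highest without gapmer 1+2 replicate 2. RP11-161H23.5 gapmer 1, gapmer 2 and gapmer 1+2 gave 0.53, 0.47 and 0.26 against the CYTOR scrambled arrays and 0.897, 0.84 and 0.62 against the LINC00158 scrambled arrays. The difference between LINC00158 and RP11-161H23.5 was 0.049 after quantile normalization and from -0.538 to 0.288 without 1 replicate number (0.288 without replicate 3). The cause was not tested. Of single results under the alternatives, 684 kept direction and side of the threshold (among them all of MNDA's CYTOR runs against scrambled, given with no test), 113 lost the call, 9 gained it and 9 turned. FCN1's 6 calls against scrambled and LYZ's with LINC00158 gapmer 1+2 held in all of them. Over all units the share called in a treatment ranged from 0.296% (LINC00158 gapmer 1, only its own groups in the fit) to 25.4% (LINC00158 gapmer 2, all 36 arrays in 1 fit), against 10.8% and 17.4%. Signals near background, and sets that coincide with treatment, limit all other calls.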
